A study of Mus musculus with 4 samples.

Results

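The genes of TGF-beta and BMP signaling were examined in articular cartilage of mice designed for inducible deletion of Cbfb. Cbfb encodes the partner subunit that strengthens DNA binding by the Runx transcription factors. A list of 54 genes was grouped by role in the pathway. It held 16 ligands, 13 receptors and co-receptors, 10 Smads and Smurfs, 6 secreted or membrane antagonists, 4 latent TGF-beta binding proteins, the co-repressors Ski and Skil, and 3 Id genes. All 54 were found among the 50686 gene identifiers of the hip libraries and the 54838 of the knee libraries. There were 4 poly-A RNA libraries, 1 per condition. In the hip pair the control came from Cbfb f/f mice, labelled as given no treatment and carrying no Cre (the study's methods describe injections, of TMX or of oil, for such mice as well), and the other library came from tamoxifen (TMX) injected Cbfb f/f mice with Col2a1-CreERT. Both knee libraries came from Cbfb f/f mice with Aggrecan-CreERT, injected with oil for the control and with TMX for the other. Every group carried the floxed alleles. The mice were males, 6 weeks old in the hip pair (elsewhere given as 2 months) after TMX at 2 weeks, and 12 weeks old in the knee pair after TMX at 6 weeks (elsewhere given as another age). Col2a1-CreERT and Aggrecan-CreERT act in cells that use these cartilage promoters, so other cells of a joint sample would keep Cbfb. Pooling of animals is not given in the sources used here. The study describes its hip samples as articular cartilage alone and its knee samples as cartilage together with bone. Joint, tissue make-up, Cre line, age and kind of control differ together between the pairs and cannot be told apart.

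Ligands of this family bring a type I and a type II receptor kinase together, the type II receptor phosphorylates the type I receptor, and the type I receptor phosphorylates receptor Smads. TGF-beta and activin receptors act mainly on Smad2 and Smad3, and BMP receptors on Smad1, Smad5 and Smad9, and both sets join Smad4 to regulate genes in the nucleus. In cartilage, TGF-beta signaling is known for keeping articular chondrocytes from hypertrophy, and BMP signaling for driving chondrocyte differentiation and matrix production, with secreted antagonists and latent binding proteins setting how much ligand reaches the receptors.

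Counts on genes ranged from 34264456 to 38473120 per library. Cbfb itself had 2548 counts in the hip control and 2946 in the hip library labelled Cbfb-deficient (log2 ratio 0.41, interval 0.33 to 0.48). The knee libraries held 3796 and 4572 Cbfb counts (log2 ratio -0.07, interval -0.13 to -0.01). With the dependence of ratios on transcript length and GC content over all genes subtracted, the Cbfb ratios were -0.21 in the hip and 0.08 in the knee, so both signs turned. These counts are summed over the whole gene, counts by exon were not analysed here, and the libraries are called by their labels. Skeletal muscle markers held 19.8% of the counts of the hip control and 20.8% of those of the labelled Cbfb-deficient hip library, while 16 chondrocyte markers together held 0.026% and 0.0106%. The muscle markers of the knee pair held 1.34% and 3.05% and the chondrocyte markers 0.641% and 0.315%. None of the 16 chondrocyte markers was at 0 in both libraries of a pair. Of 13 lists of cell type markers, those of tendon and ligament had the lowest median log2 ratio in the hip pair at -1.89, then B and T cells at -1.57, macrophages at -1.11, hypertrophic chondrocytes at -0.99, chondrocytes at -0.89, erythroid cells at -0.80, osteoclasts at -0.57 and osteoblasts and osteocytes at -0.53. Hip medians were -0.04 for neutrophils and for vessels, 0.19 for muscle, 0.62 for the superficial zone and synovial lining, and 0.77 for adipocytes. The lowest knee medians were those of chondrocytes at -1.69, hypertrophic chondrocytes at -1.59, osteoclasts at -1.41 and osteoblasts and osteocytes at -0.90, while erythroid and B and T cells both stood at -0.54, neutrophils at -0.23 and macrophages at -0.19. Knee medians were 0.04 for vessels, 0.17 for tendon and ligament, 0.81 for adipocytes, 0.88 for the superficial zone and synovial lining, and 1.04 for muscle. The part of these cell types in the members' values was not tested. In such bulk RNA, fewer cells of a type and less RNA per cell cannot be told apart. With 1 library per condition, each ratio below compares 2 libraries, each interval is a 95% Clopper-Pearson interval of counting error alone, and no p-value can be given within a pair. Where 2 counts are given, the control stands first.

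Levels were compared between genes in CPM, counts scaled to the library total, per kilobase of the longest annotated transcript. In the hip control the highest levels were those of Ltbp4 at 50.4, Id3 at 34.7 and Ltbp3 at 27.2. In the knee control they were those of Id3 at 132, Tgfb1 at 108 and Id1 at 42.3. Tgfb1, the ligand TGF-beta 1, stood at 11.6 in the hip control. The lowest levels in the hip control were those of Acvr1c at 0.0511 and Gdf6 at 0.0584, and in the knee control those of Fstl3 at 0.0743 and Acvr1c at 0.0765. The program that counted the knee libraries is not given in the sources used here, so a level in 1 joint is set beside the other as a value only.

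**Figure D1:**
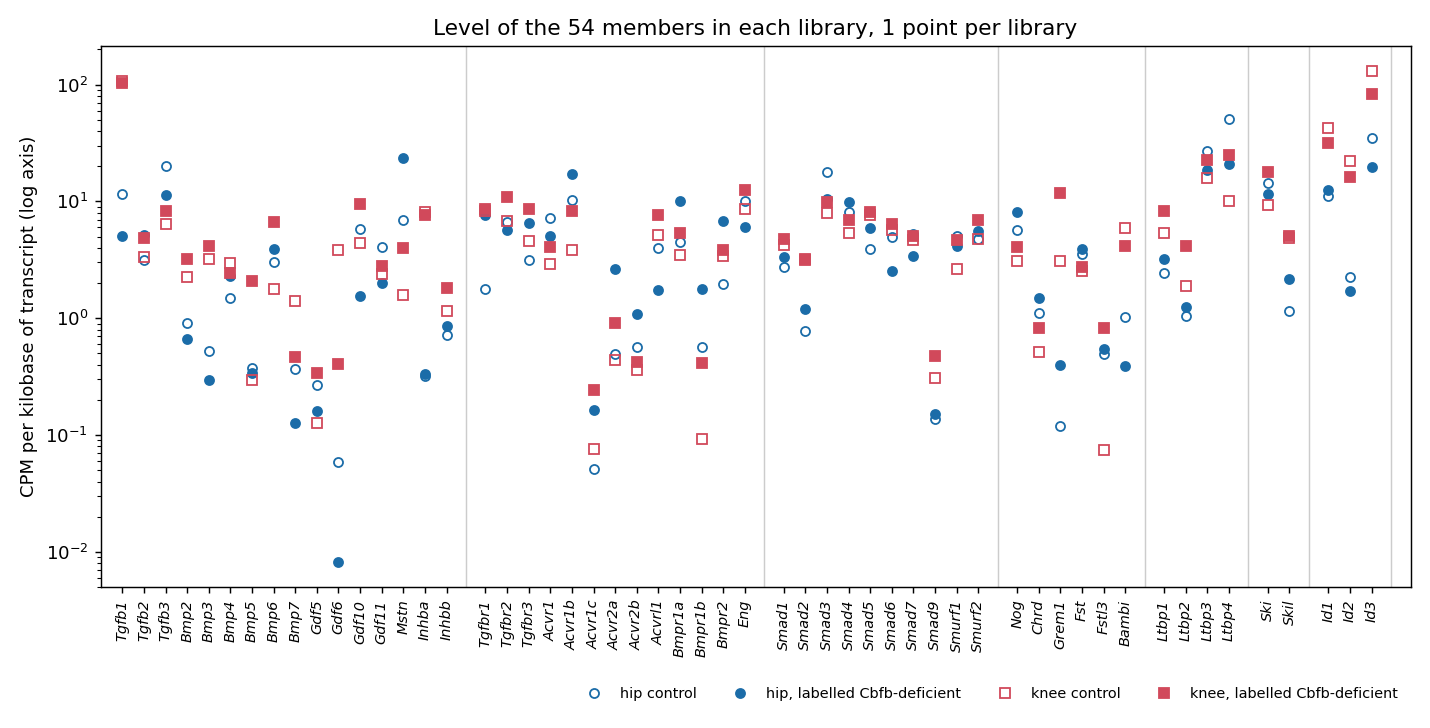
Level of each of the 54 members in each of the 4 libraries, in CPM per kilobase of the longest transcript on a log axis, with 1 point per library and no error bar. Circles are hip and squares knee libraries, open for controls and filled for those labelled Cbfb-deficient; the highest point is Id3 in the knee control at 132 and the lowest Gdf6 in the labelled Cbfb-deficient hip library at 0.00812.

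Of the 54 members, 53 had at least 10 counts over the hip pair and all 54 over the knee pair. The member under that limit was Gdf6, with 8 counts in the hip control and 1 in the labelled Cbfb-deficient hip library. A member was called when its log2 ratio was at least 1 in size and its counting interval excluded 0. The hip pair held 15 called members, 9 higher and 6 lower in the labelled Cbfb-deficient library, against 36.5% of all genes tested. The knee pair held 11 called members, 9 higher and 2 lower, against 15.8% of all genes tested. As shares of the members tested these were 28.3% and 20.4%, below the share of all genes in the hip and somewhat above it in the knee. By direction, 20.2% of all hip genes were called higher and 16.3% lower, and 9.0% and 6.81% of all knee genes. Whatever their size, 46 hip members lay beyond their counting intervals, 25 higher and 21 lower, against 71.0% of all genes, 37.3% higher and 33.7% lower. Likewise 44 knee members did, 32 higher and 12 lower, against 61.6% of all genes, 31.9% higher and 29.7% lower. The median log2 ratio over the members was 0.20 in the hip pair, where that of all genes was 0.01, and 0.33 in the knee pair, where that of all genes was 0.02. Scaling by total counts in place of TMM raised the knee medians to 0.51 for the members and 0.20 for all genes. At a limit of 1.5-fold, 29 hip members were called, 16 higher and 13 lower, against 51.6% of all genes, 28.1% higher and 23.5% lower. At that limit 22 knee members were called, 16 higher and 6 lower, against 30.0% of all genes, 16.4% higher and 13.7% lower. The hip members closest to the limit of 1 were Tgfbr3 at 1.10 and Tgfb1 at -1.15 inside it and Acvr2b at 0.97 and Skil at 0.96 outside it. Those of the knee pair were Ltbp4 at 1.12 and Mstn at 1.14 inside and Ltbp2 at 0.97 and Gdf10 at 0.93 outside.

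**Figure D2:**
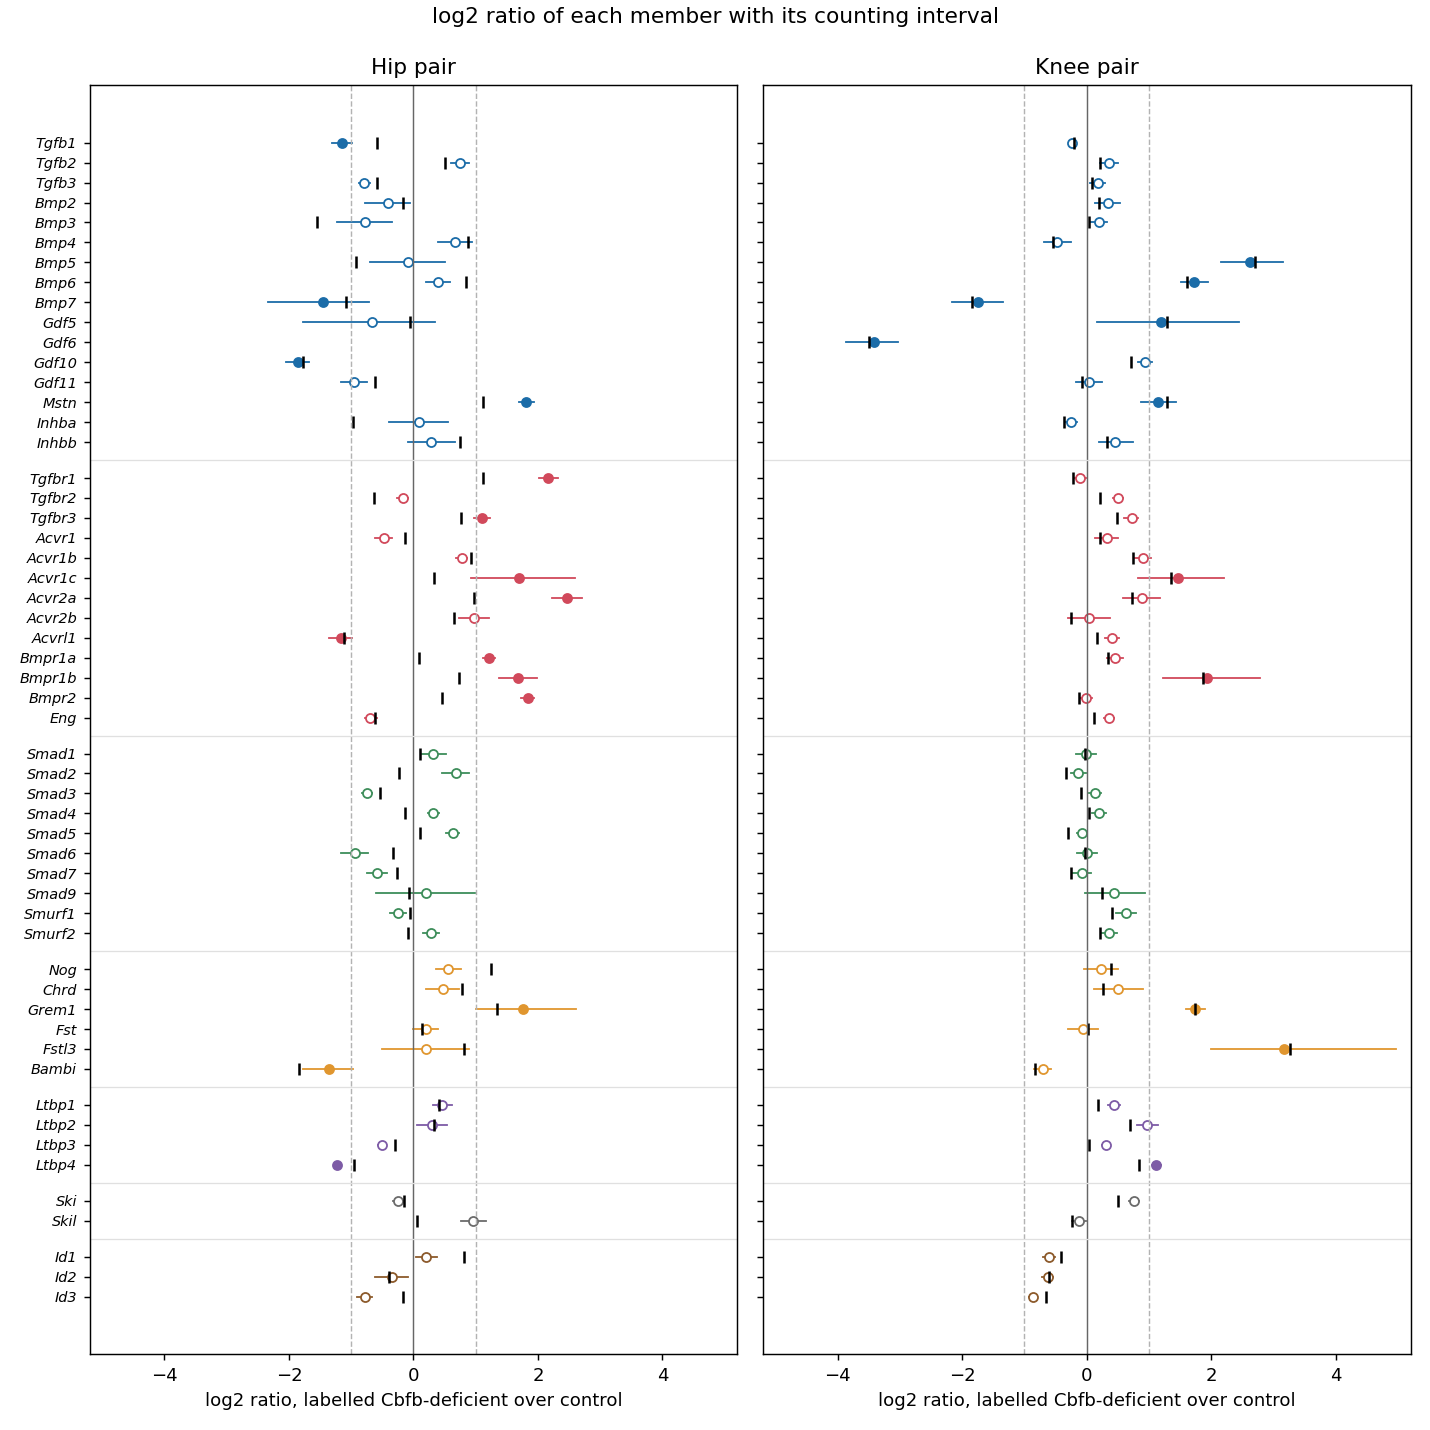
Log2 ratio of each member, labelled Cbfb-deficient over control, in the hip pair (left) and the knee pair (right). Points are ratios, horizontal lines 95% counting intervals, filled points called members, black ticks the ratio with its dependence on length and GC content over all genes subtracted, and dashed lines the limit of 1 in size; the receptors lie mostly to the right in the hip pair, with 7 called higher, and the Smads and Smurfs lie inside the limit in both pairs.

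The 3 TGF-beta ligands did not move as a set. Tgfb1 had 1143 counts in the hip control and 450 in the labelled Cbfb-deficient hip library. This was a 2.21-fold lower level (log2 ratio -1.15, interval -1.31 to -0.99). Hip ratios depended on transcript length and GC content over all genes, as described further on, and with this dependence subtracted (the trend removed) the Tgfb1 ratio was -0.58 and no longer called. Tgfb1 had 9524 and 10232 counts in the knee libraries (log2 ratio -0.24, interval -0.28 to -0.20). Scaled by total counts the knee ratio was -0.05 (interval -0.09 to -0.01). Tgfb1 was therefore lower in both pairs, past the limit in the hip alone, and by a size in the knee that depended on the scaling. Tgfb2 and Tgfb3, encoding the other isoforms and named here to complete the set, had hip log2 ratios of 0.75 and -0.79 and knee log2 ratios of 0.35 and 0.18.

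Among 9 BMP and GDF ligands, the knee pair held 3 called higher and 2 called lower, against 9.0% and 6.81% of all genes. The hip pair held 2 called lower and none higher, against 16.3% and 20.2% of all genes. Gdf6, a ligand of joint and skeletal patterning (ENSMUSG00000051279, chromosome 4 of GRCm39 from 9844350 to 9862354), had the lowest ratio of all members in either pair, with 469 counts in the knee control and 55 in the labelled Cbfb-deficient knee library. Its level was 10.7-fold lower (log2 ratio -3.42, interval -3.86 to -3.03). In the hip pair Gdf6 was too low to compare. Bmp7, a ligand known for maintaining cartilage matrix, was lower in both pairs. It had 58 and 18 counts in the hip pair (log2 ratio -1.46, interval -2.34 to -0.71), and 194 and 73 counts in the knee pair (log2 ratio -1.74, interval -2.16 to -1.35).

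Bmp5 and Bmp6, which encode closely related BMP ligands, were higher in the labelled Cbfb-deficient knee library. For Bmp5 the knee counts were 39 and 307, a 6.15-fold higher level (log2 ratio 2.62, interval 2.15 to 3.16). Its hip counts were 55 and 45, within the counting interval (log2 ratio -0.09, interval -0.69 to 0.50), but the hip ratio was -0.92 (interval -1.52 to -0.33) with the trend removed. For Bmp6 the knee counts were 218 and 913, a 3.30-fold higher level (log2 ratio 1.72, interval 1.51 to 1.95). The hip pair gave 419 and 482 counts of Bmp6 (log2 ratio 0.40, interval 0.21 to 0.59). Bmp6 was thus higher in both pairs and called in the knee alone, and the difference between the joints was not tested. Exons of Bmp5 share 46.6% of their bases with an antisense gene, Gm26903, which had 0 counts in 3 libraries and 1 in the labelled Cbfb-deficient knee library.

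Gdf10, a BMP3-related ligand, went opposite ways in the joints. Its counts were 1230 and 295 in the hip libraries, a 3.63-fold lower level (log2 ratio -1.86, interval -2.05 to -1.68). The knee counts of Gdf10 were 828 and 2003 (log2 ratio 0.93, interval 0.82 to 1.05). Its hip ratio was -1.77 and its knee ratio 0.71 with the trend removed. Gdf5, a ligand that marks forming joints, was called higher in the knee from 10 and 30 counts, a log2 ratio of 1.20 with a wide interval of 0.17 to 2.44. It fell under the 50 counts required for naming and was named after its value was seen. The other ligands of this kind were Bmp2, Bmp3 and Bmp4, with hip log2 ratios from -0.78 to 0.67 and knee log2 ratios from -0.47 to 0.34. With the trend removed the hip ratio of Bmp3 was -1.55, past the limit, and that of Bmp2 was -0.17.

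Mstn, which encodes myostatin, an inhibitor of muscle growth made mainly by skeletal muscle, was higher in both pairs. Its counts were 725 and 2221 in the hip pair (log2 ratio 1.81, interval 1.69 to 1.94), which was 1.12 with the trend removed. Knee counts of Mstn were 146 and 409 (log2 ratio 1.14, interval 0.87 to 1.43). Skeletal muscle markers moved with it in the knee, where 21 of 21 were higher beyond their intervals, 14 were called, and their median log2 ratio was 1.04. In the hip pair 10 of the 21 muscle markers were higher and 10 lower, with a median log2 ratio of 0.19. None of the muscle markers was at 0 in both libraries of a pair, and their part in the Mstn values was not tested. The activin subunits Inhba and Inhbb and the ligand Gdf11 lay between -0.95 and 0.29 in the hip pair and between -0.25 and 0.46 in the knee pair, so Mstn was the called member of these 4 ligands in each pair. Inhba, at 0.09 in the hip pair, was at -0.97 there with the trend removed.

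Of 13 receptors and co-receptors, 7 were called higher and 1 lower in the labelled Cbfb-deficient hip library, with a median log2 ratio of 1.10. This was 61.5% of them, against 36.5% of all genes. The knee pair held 2 called higher and none lower, 15.4% of the receptors against 15.8% of all genes, with a median log2 ratio of 0.46. Receptor transcripts are long, with a median of 6230 bases for the longest transcript against 3684 bases over the hip genes, and with the trend removed the hip median of the receptors was 0.46. Only 2 of the 8 hip calls then remained, those of Tgfbr1 (higher) and Acvrl1 (lower), against 29.8% of all genes.

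Of the 7 type I receptors, Tgfbr1, which encodes the TGF-beta type I receptor ALK5 (ENSMUSG00000007613, chromosome 4 of GRCm39 from 47353134 to 47414931), had 404 and 1579 counts in the hip pair. Its level was 4.48-fold higher (log2 ratio 2.16, interval 2.01 to 2.33), and the ratio was 1.11 with the trend removed. The knee libraries held 1688 and 1974 counts of it (log2 ratio -0.11, interval -0.21 to -0.02). Scaled by total counts the knee ratio was 0.07 (interval -0.03 to 0.16), so its direction in the knee depended on the scaling. Acvrl1, encoding ALK1, a type I receptor best known in endothelial cells, was the receptor called lower in the hip pair. Its hip counts were 949 and 368 (log2 ratio -1.17, interval -1.35 to -0.99), which was -1.11 with the trend removed. Its knee counts were 1074 and 1807 (log2 ratio 0.41, interval 0.30 to 0.52). Eng, the endoglin co-receptor that acts with ALK1 and named here for that reason, had log2 ratios of -0.69 in the hip and 0.36 in the knee. Of 10 vessel markers, 3 were higher and 4 lower beyond their intervals in the hip pair, with a median log2 ratio of -0.04, and 5 were higher and 5 lower in the knee pair, with a median of 0.04. Summed, the vessel markers took 0.0376% and 0.0341% of counts in the hip pair and 0.0392% and 0.0471% in the knee pair, and none was at 0 in both libraries of a pair.

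The BMP type I receptors Bmpr1a and Bmpr1b were both called higher in the hip pair. Bmpr1b (ENSMUSG00000052430, chromosome 3 of GRCm39 from 141542897 to 141875323) had 124 and 347 counts in the hip pair (log2 ratio 1.68, interval 1.38 to 1.99). Its knee counts were 18 and 89 (log2 ratio 1.93, interval 1.22 to 2.79). With the trend removed the hip ratio was 0.73 and the knee ratio 1.86, so the hip call ended and the knee call did not. Bmpr1a had 1170 and 2361 counts in the hip pair (log2 ratio 1.21, or 0.09 with the trend removed). For Bmpr1a the knee counts were 812 and 1411 (log2 ratio 0.46, interval 0.33 to 0.58). Acvr1c, encoding ALK7, had the lowest level per length of the receptors in both controls. It had 18 and 52 counts in the hip pair (log2 ratio 1.70, or 0.33 with the trend removed), and 24 and 85 in the knee pair (log2 ratio 1.46, interval 0.82 to 2.20). The remaining type I receptors, Acvr1 and Acvr1b, which bind BMP and activin ligands, were not called, with hip log2 ratios of -0.48 and 0.78 and knee log2 ratios of 0.32 and 0.90.

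The 4 type II receptors phosphorylate the type I receptors. Acvr2a, an activin and BMP type II receptor, had the largest hip ratio of all members. Its counts were 177 and 853, a 5.51-fold higher level (log2 ratio 2.46, interval 2.23 to 2.71), and the ratio was 0.98 with the trend removed. The knee pair gave 139 and 325 counts (log2 ratio 0.88, interval 0.59 to 1.18). Exons of Acvr2a share 30.5% of their bases with Orc4 on the opposite strand, which had 330 and 492 counts in the hip pair and 608 and 801 in the knee pair. Bmpr2, the BMP type II receptor, had 972 and 3028 counts in the hip pair (log2 ratio 1.84, or 0.46 with the trend removed). Its knee counts were 1504 and 1888 (log2 ratio -0.01, interval -0.11 to 0.09), and scaling by total counts gave 0.17 (interval 0.07 to 0.27). The other type II receptors, Tgfbr2 and Acvr2b, had hip log2 ratios of -0.17 and 0.97 and knee log2 ratios of 0.50 and 0.04. Tgfbr3, the betaglycan co-receptor that presents TGF-beta 2, had 737 and 1376 counts in the hip pair and 965 and 2006 in the knee pair. It was higher in both labelled Cbfb-deficient libraries, by log2 ratios of 1.10 (interval 0.97 to 1.23) and 0.72 (interval 0.60 to 0.83), and the hip ratio was 0.77 with the trend removed.

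No Smad or Smurf was called in either pair, against 36.5% of all genes in the hip and 15.8% in the knee. The 8 Smads, which carry the signal or (Smad6 and Smad7) inhibit it, had hip log2 ratios from -0.94 for Smad6 to 0.68 for Smad2. Beyond their intervals 4 were higher and 3 lower, against 37.3% and 33.7% of all genes. With the trend removed none was higher and 5 were lower, against 34.4% and 32.9% of all genes, and Smad6 was at -0.32 and Smad2 at -0.23. Their knee log2 ratios ranged from -0.14 for Smad2 to 0.44 for Smad9. In the knee 2 were higher, against 31.9% of all genes, 1 lower, against 29.7%, and 5 within their intervals. With the trend removed none was higher and 4 were lower there, against 29.1% and 30.3% of all genes. Smad3 had 3656 and 1912 counts in the hip pair (log2 ratio -0.74, interval -0.82 to -0.66), and 1457 and 2014 in the knee pair (log2 ratio 0.13, interval 0.03 to 0.23). Smad2 had 285 and 398 counts in the hip pair and 1032 and 1183 in the knee pair. Its ratios were opposite in sign to those of Smad3 in each joint, but not with the trend removed, where Smad3 stood at -0.53 in the hip and -0.10 in the knee and Smad2 at -0.34 in the knee. The Smad2 knee ratio was 0.04 when scaled by total counts. The Smurfs, ubiquitin ligases that mark receptors and Smads for breakdown, had hip log2 ratios of -0.25 for Smurf1 and 0.28 for Smurf2, the latter at -0.08 with the trend removed. Both were higher in the knee pair, by 0.63 and 0.36. These Smads and Smurfs were named after their values were seen.

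Of 6 antagonists, 1 was called higher and 1 lower in the hip pair, against 36.5% of all genes, and 2 higher in the knee pair, against 15.8%. Grem1, a secreted BMP antagonist of the DAN family (ENSMUSG00000074934, chromosome 2 of GRCm39 from 113576509 to 113589000), was higher in both pairs. Its hip counts were 19 and 57 (log2 ratio 1.76, interval 1.01 to 2.61, or 1.34 with the trend removed). Its knee counts were 442 and 1871 (log2 ratio 1.74, interval 1.59 to 1.90). Fstl3, a follistatin-like protein that binds activins and myostatin, had 5 and 62 counts in the knee pair, a log2 ratio of 3.17 with an interval of 1.99 to 4.97, and 37 and 37 in the hip pair, where the ratio was 0.81 with the trend removed. Its exons share 47.1% of their bases with Prss57 on the opposite strand, which had 1118 and 1352 counts in the knee pair. Bambi, a decoy receptor without a kinase domain, was lower in both pairs. Its hip counts were 204 and 69 (log2 ratio -1.36, interval -1.78 to -0.97), and its knee counts 1044 and 808 (log2 ratio -0.71, interval -0.84 to -0.58). Nog, Chrd and Fst, encoding noggin, chordin and follistatin, lay between 0.20 and 0.56 in the hip pair and between -0.06 and 0.51 in the knee pair. With the trend removed the hip ratio of Nog was 1.25, past the limit, and that of Chrd 0.78.

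The latent TGF-beta binding proteins are matrix proteins, some of which hold inactive TGF-beta there. Ltbp4 (ENSMUSG00000040488, chromosome 7 of GRCm39 from 27004086 to 27037117), the most abundant member in the hip control, had 11369 counts there and 4235 in the labelled Cbfb-deficient hip library. Its level was 2.34-fold lower (log2 ratio -1.23, interval -1.28 to -1.18). The knee libraries held 2025 and 5584 Ltbp4 counts, a 2.18-fold higher level (log2 ratio 1.12, interval 1.05 to 1.20). Ltbp4 was the member called in both pairs in opposite directions, and with the trend removed its ratios were -0.95 and 0.84, under the limit in each. Ltbp3 moved likewise at a smaller size, with 5991 and 3678 counts in the hip pair (log2 ratio -0.51, interval -0.57 to -0.45), and 3143 and 4920 in the knee pair (log2 ratio 0.31, interval 0.24 to 0.37, or 0.04 with the trend removed). Ltbp1 and Ltbp2 were higher in both pairs, with log2 ratios from 0.30 to 0.97. Of 6 tendon and ligament markers, 5 were lower and 1 higher beyond their intervals in the hip pair, with a median log2 ratio of -1.89. Their summed counts were 18166 and 4043 (0.0472% and 0.0117%), of which Fmod alone held 11027 and 1725. Scx, at -0.41, was at 0.29 with the trend removed. Macrophage and chondrocyte markers were lower there as well, with medians of -1.11 and -0.89. In the knee pair 3 of the 6 tendon and ligament markers were higher and 2 lower, with 0.0343% and 0.0429% of counts and a median of 0.17. Knee medians of muscle and superficial zone markers were 1.04 and 0.88. No tendon or ligament marker was at 0 in both libraries of a pair, and the part of these lists in the Ltbp4 values was not tested.

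Neither co-repressor was called in either pair, where 36.5% of all genes were called in the hip and 15.8% in the knee. Ski, which holds Smad complexes inactive, had 3302 and 2413 counts in the hip pair (log2 ratio -0.25), and 1920 and 4120 in the knee pair (log2 ratio 0.76, interval 0.68 to 0.84). Skil, the related SnoN gene that TGF-beta itself induces, had 313 and 531 counts in the hip pair (log2 ratio 0.96, or 0.06 with the trend removed). Skil had 1189 and 1375 counts in the knee libraries (log2 ratio -0.13, interval -0.24 to -0.02). The Skil ratio was within its interval in the hip with the trend removed (interval -0.15 to 0.26), and in the knee when scaled by total counts (0.05, interval -0.06 to 0.16). Ski was lower in the hip and higher in the knee beyond its intervals under every scaling tried and with the trend removed.

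The Id genes are immediate targets of BMP signaling through Smad1 and Smad5. The 3 among the members, Id1, Id2 and Id3, were lower in the labelled Cbfb-deficient knee library beyond their intervals, against 29.7% of all genes. None of the 3 passed the limit, where 15.8% of all knee genes were called. Id1 had 1915 and 1593 knee counts (log2 ratio -0.60, interval -0.70 to -0.51). Id2 had 2437 and 1993 (log2 ratio -0.63, interval -0.72 to -0.54). Id3 had 5782 and 4034 (log2 ratio -0.86, interval -0.92 to -0.80). These 3 also stayed below 0 in the knee under every scaling tried. With the trend removed they were at -0.41 for Id1, -0.60 for Id2 and -0.65 for Id3. Id4, held among the further target genes below and named after its values were seen, went the other way in the knee. It had 685 and 1021 knee counts (log2 ratio 0.24, interval 0.1 to 0.38, or 0.29 with the trend removed). Its hip counts were 41 and 33, within the counting interval (log2 ratio -0.11). In the hip pair Id3 had 1704 and 863 counts (log2 ratio -0.78, interval -0.90 to -0.66), which was -0.16 with the trend removed. Id2 had 276 and 189 hip counts, a log2 ratio of -0.35, and Id1 had 564 and 568, a log2 ratio of 0.21 that became 0.82 with the trend removed. Several lists of cell type markers were mostly lower in the knee pair as well. Of 16 chondrocyte markers, 13 were lower beyond their intervals and 3 higher, and 12 were called, with a median log2 ratio of -1.69. Lower likewise were 7 of 8 osteoclast, 4 of 5 hypertrophic chondrocyte, 7 of 9 erythroid and 7 of 10 osteoblast and osteocyte markers. Muscle, adipocyte and superficial zone markers were mostly higher. In the hip pair 10 of the 16 chondrocyte markers were lower and 3 higher, with a median of -0.89. The part of these lists in the Id values was not tested.

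Among the 53 members compared in both joints, 5 were called in the same direction in both. They were Acvr1c, Bmpr1b, Grem1 and Mstn, higher, and Bmp7, lower. This was 9.43% of the members, against 3.67% of 17594 genes. With the trend removed 3 of the 5 remained (Bmp7, Grem1 and Mstn), 5.66% of the members against 3.07% of genes. Another 4, Acvrl1, Gdf10, Ltbp4 and Tgfbr1, went opposite ways beyond both intervals with a call in at least 1 pair, which was 7.55% of the members against 7.28% of the genes. Without the limit on size, 20 members went the same way beyond both intervals, 37.7% against 31.0% of the genes, and 18 went opposite ways, 34.0% against 20.5%. With the trend removed 22 members went the same way, 41.5% against 27.3%, and 12 opposite ways, 22.6% against 19.9%. Under each of 3 other scalings and with the trend removed, 15 of the 20 still went the same way and 8 of the 18 opposite ways. The 8 were Acvr1, Acvrl1, Bmp4, Eng, Gdf10, Ltbp4, Ski and Tgfbr2.

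A single test used both pairs as replicates, with the joint as a block and 1 residual degree of freedom. By edgeR's quasi-likelihood test, 0 of 17594 genes had a Benjamini-Hochberg adjusted p under 0.05, and 5.93% had an unadjusted p under 0.05. By DESeq2, 46 genes, or 0.317% of those with an adjusted p, passed, and no member was among them. The smallest adjusted p of a member was 0.738 by edgeR and 0.189 by DESeq2, for Grem1 in both. Of the 53 members, 7 had an unadjusted p under 0.05 by edgeR's quasi-likelihood test and the same 7 by DESeq2, which was 13.2%. Among all 17594 genes fitted, 1237 had an unadjusted p under 0.05 by DESeq2. The 7 were Acvr2a, Bmpr1b, Grem1 and Mstn, higher, and Bambi, Bmp7 and Id3, lower. The shift shared by the joints was 1.66 for Grem1 (edgeR unadjusted p = 0.00446), 1.37 for Mstn (edgeR unadjusted p = 0.00719) and 1.57 for Acvr2a (edgeR unadjusted p = 0.00951) on the log2 scale, each in 2 of 2 pairs. By their labels the libraries of each pair also differ in TMX, and those of the hip pair in Cre.

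**Figure D3:**
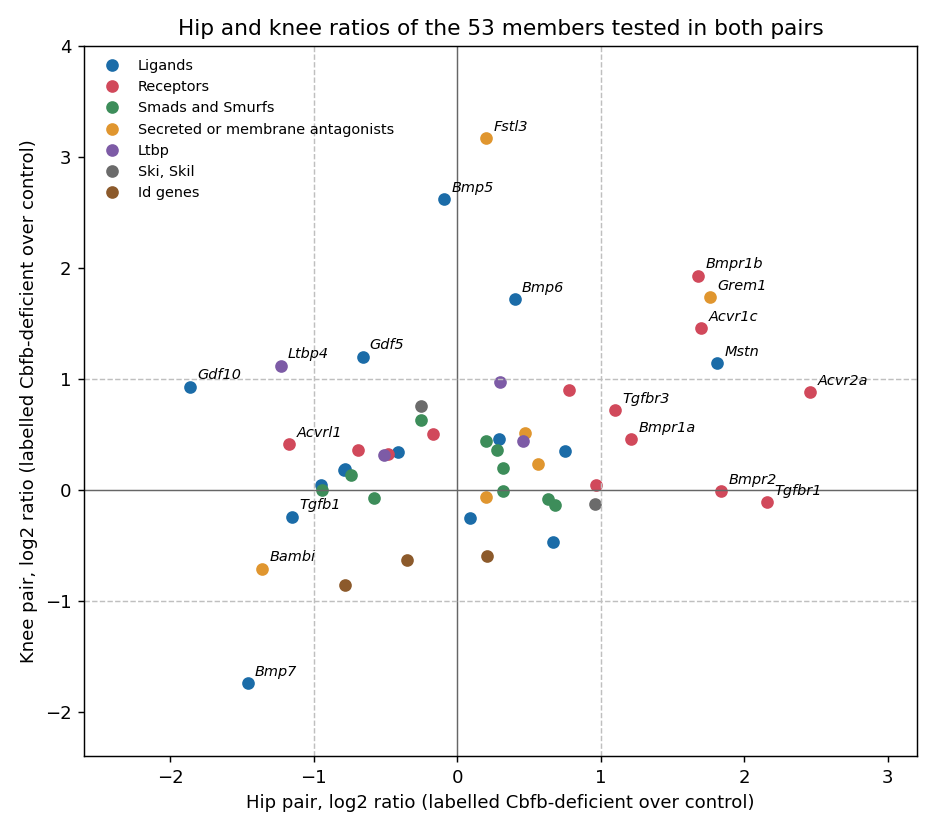
Log2 ratio of the 53 members compared in both pairs, hip on the horizontal and knee on the vertical axis, with 1 point per member colored by role, no error bars, and dashed lines at the limit of 1 in size. Named points were called in at least 1 pair; Bmpr1b, Grem1, Acvr1c and Mstn lie beyond the limit at the upper right, Bmp7 beyond it at the lower left and Ltbp4 at the upper left, where Gdf10 and Acvrl1 lie inside the limit on the knee axis, at 0.93 and 0.41.

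Promoter sequence was read to show what stands upstream of members that moved alike in the joints. RefSeq promoters of GRCm38.p6 were matched by symbol for 38 of the 54 members, and the 250 bases before the first listed start of each gene were searched on both strands. The letters TGTGGT, the only form of a Runx site that was searched, were in 0 of the 38, against 14.2% of 27025 genes. The letters CAGAC, bound by Smad3 and Smad4, were in 18 members, or 47.4%, against 42.1% of genes. The letters GGCGCC, bound by Smad1 and Smad5, were in 9 members, or 23.7%, against 9.54% of genes. The E-box CACGTG was in 4 members, or 10.5%, against 6.05% of genes. None of these strings of letters holds another. The shares were not matched for base content, and the promoters shown here ranged from 38.4% G and C in Mstn to 79.6% in Acvr1c. Shown here are the members called the same way in both pairs and the Id genes lower in both, where RefSeq lists their promoters. They are Mstn at chr1:53061390-53061639 (plus strand), Grem1 at chr2:113758649-113758898 (minus strand), Bmpr1b at chr3:141982265-141982514 (minus strand), Acvr1c at chr2:58357759-58358008 (minus strand), Id2 at chr12:25096093-25096342 (minus strand) and Id3 at chr4:136143572-136143821 (plus strand). Each is written 5′ to 3′ on the strand of its gene and ends at the base before the start, with the Smad letters of either kind in capitals, on whichever strand they stand:
Mstn: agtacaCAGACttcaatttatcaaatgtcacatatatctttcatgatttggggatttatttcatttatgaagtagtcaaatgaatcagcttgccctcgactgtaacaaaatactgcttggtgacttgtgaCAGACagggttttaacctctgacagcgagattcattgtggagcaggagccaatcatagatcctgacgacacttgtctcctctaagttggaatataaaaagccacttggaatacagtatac
Grem1: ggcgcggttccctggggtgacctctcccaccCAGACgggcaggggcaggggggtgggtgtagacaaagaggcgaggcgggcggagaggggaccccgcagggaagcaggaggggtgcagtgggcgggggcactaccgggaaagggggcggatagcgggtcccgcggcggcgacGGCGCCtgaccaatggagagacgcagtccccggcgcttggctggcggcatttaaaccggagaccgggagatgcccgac
Bmpr1b: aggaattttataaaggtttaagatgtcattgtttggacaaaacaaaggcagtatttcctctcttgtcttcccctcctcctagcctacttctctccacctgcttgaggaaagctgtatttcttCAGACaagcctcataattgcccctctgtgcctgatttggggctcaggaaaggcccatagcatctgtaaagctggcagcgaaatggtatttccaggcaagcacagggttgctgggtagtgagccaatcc
Acvr1c: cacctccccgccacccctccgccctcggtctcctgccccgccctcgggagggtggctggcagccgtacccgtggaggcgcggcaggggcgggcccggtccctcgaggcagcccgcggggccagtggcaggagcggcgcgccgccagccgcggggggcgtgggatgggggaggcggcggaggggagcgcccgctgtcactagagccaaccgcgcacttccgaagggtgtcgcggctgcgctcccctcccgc
Id2: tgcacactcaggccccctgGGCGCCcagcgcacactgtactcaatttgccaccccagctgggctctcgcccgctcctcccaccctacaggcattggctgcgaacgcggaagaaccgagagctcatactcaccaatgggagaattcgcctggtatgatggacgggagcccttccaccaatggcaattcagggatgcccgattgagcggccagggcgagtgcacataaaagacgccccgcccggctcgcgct
Id3: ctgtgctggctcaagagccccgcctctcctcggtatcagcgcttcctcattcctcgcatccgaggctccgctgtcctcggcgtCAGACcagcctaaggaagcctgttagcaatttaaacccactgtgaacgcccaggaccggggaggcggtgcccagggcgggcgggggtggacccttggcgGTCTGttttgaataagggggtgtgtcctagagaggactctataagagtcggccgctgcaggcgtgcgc
The Smad3 and Smad4 letters stood at 2 places in Mstn and in Id3 and at 1 place in Grem1 and Bmpr1b. Those of Smad1 and Smad5 stood at 1 place in Grem1 and Id2, and Acvr1c held neither. RefSeq lists 3 promoters of Bmpr1b and 2 of Acvr1c, of which the first is shown. A match is a description of letters, and binding was not measured here.

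Ratios tended to be higher for longer transcripts over all genes, with Spearman's rho across genes of 0.23 in the hip pair and 0.24 in the knee pair. Over 20 classes of length, the median log2 ratio of the shortest was -0.19 and of the longest 0.72 in the hip pair, and -0.34 and 0.22 in the knee pair. The members' longest transcripts had a median of 5312 bases among the 53 tested in the hip pair, against 3684 over all genes. Across members, which are not independent replicates, Pearson's r of ratio with length was 0.29 and Spearman's rho 0.33 in the hip pair, and 0.07 and 0.12 in the knee pair. After the median of each length class and then of each GC class was subtracted, the median over the members was -0.06 in the hip pair and 0.17 in the knee pair. Of the 15 hip calls, 7 remained (Acvrl1, Bambi, Bmp7, Gdf10, Grem1, Mstn and Tgfbr1), 8 were lost, and Bmp3 and Nog were added, against 29.8% of all genes called in this way. Of the 11 knee calls, 10 remained and that of Ltbp4 was lost, against 14.9% of all genes. The hip median over the members was therefore above or below 0 according to this correction, and the cause of the dependence on length was not tested.

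**Figure D4:**
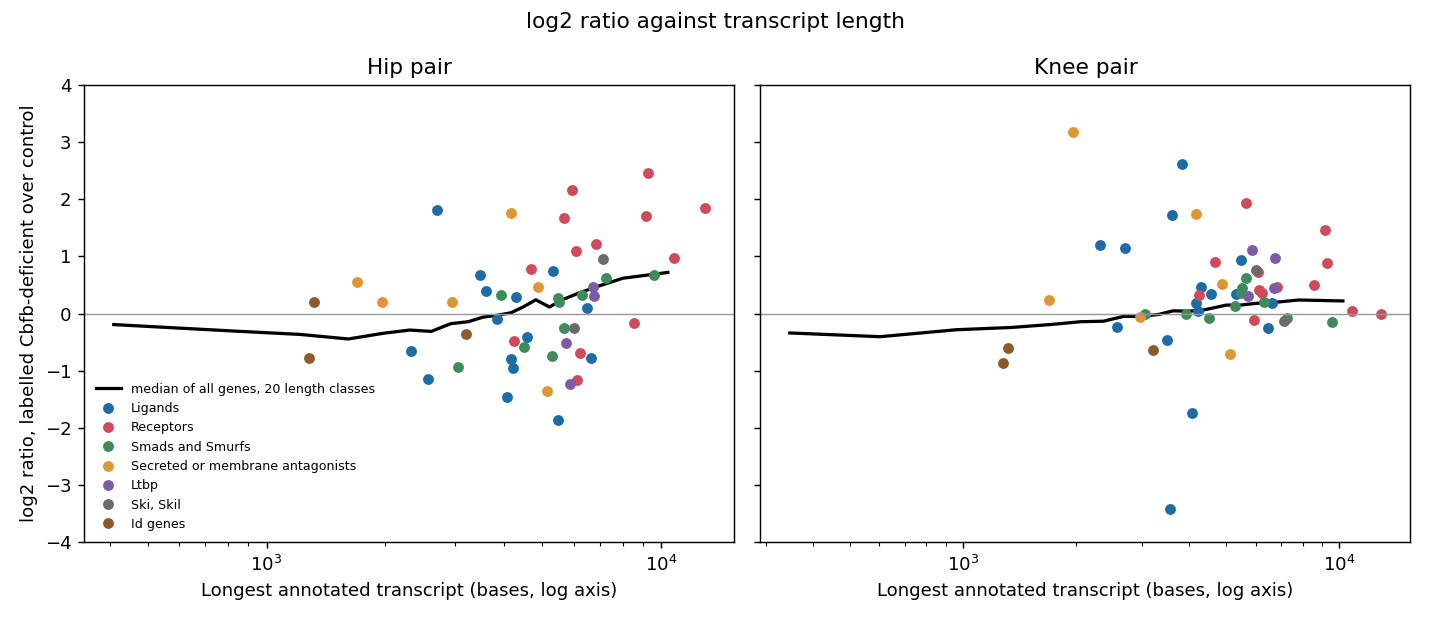
Log2 ratio of each tested member, labelled Cbfb-deficient over control, against the length of its longest annotated transcript on a log axis, in the hip pair (left) and the knee pair (right). Points are members colored by role with no error bars, and the black line joins the median ratio of all genes in 20 length classes; the line goes from -0.19 in the shortest class to 0.72 in the longest in the hip pair, where the long receptor transcripts lie at the right, and from -0.34 to 0.22 in the knee pair.

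Exons of 25 of the 54 members overlap those of another counted gene, at least 20% of their bases in 5 (Acvr2a, Bmp4, Bmp5, Fstl3 and Gdf5). Whether the counting used strand is not given in the sources used here, so reads where a member overlaps a gene on the opposite strand cannot be told apart.

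The pathway was extended by 98 further genes listed by role, of which 97 were found. In the hip pair 17 of the 87 tested were called higher and 21 lower (median log2 ratio 0.09, or -0.16 with the trend removed), against 20.2% and 16.3% of all genes. In the knee pair 11 of 88 were called higher and 4 lower (median 0.26), against 9.0% and 6.81% of all genes. The further ligands held 2 called higher and 4 lower of 9 tested in the hip pair, and 1 each way in the knee pair. Of 7 further receptors and co-receptors, none was called higher and 3 lower in the hip pair (median -0.77), the other way from the 13 receptors above, and 2 were called higher and none lower in the knee pair (median 0.63). The intracellular regulators held 9 of 22 called higher and 1 lower in the hip pair (median 0.77, or 0.13 with the trend removed), led by the ubiquitin pathway genes Trim33 (119 and 541 counts, a log2 ratio of 2.38), Usp15 (1.85) and Wwp1 (1.69), whose ratios were 1.30, 0.55 and 0.21 with the trend removed. Genes of the matrix and of TGF-beta activation held 6 of 16 called lower and none higher there, and 2 called higher and none lower in the knee pair. Among the 6 was Fmod, the collagen-binding fibromodulin and also a tendon and ligament marker above, with 11027 and 1725 counts and a log2 ratio of -2.48. Of 13 further antagonists, 3 were called higher and 1 lower in the knee pair, with Chrdl2 at 1.91 and Sost at 1.61 among the higher. The 22 target genes held 4 called higher and 5 lower in the hip pair, and 2 higher and 2 lower in the knee pair. Among them Col1a1, a collagen gene that TGF-beta induces and bone expresses, was called lower in both pairs, at -2.23 in the hip and -1.06 in the knee. Prg4, the lubricin gene of the superficial zone, was called higher in both, at 1.14 and 1.51, and was named after its values were seen.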

How the data were processed

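Poly-A RNA of mouse hip and knee articular cartilage was sequenced, with 1 library per condition. The authors deposited raw whole-number counts for each Ensembl gene. Hip counts came from HTSeq, whose summary lines (25.8% and 24.6% of the reads listed) were left out, and the program that counted the knee libraries is not given in the sources used here. The study's methods name STAR and GRCm39, while the submitters' processing notes list mm10, STAR 2.0 and FastQC 0.11.3. Libraries held 34264456 to 38473120 counts on genes. GENCODE (GRCm39) matched 91.8% of hip and 92.6% of knee identifiers.

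Counts were scaled within each pair by edgeR 4.0.16 (TMM, in R 4.3.3). Ratios were taken after adding 0.5, with 95% Clopper-Pearson intervals. Calls needed 10 counts in a pair, an interval excluding 0 and a log2 ratio of 1 or more in size. A shift shared by both joints was tested by edgeR's quasi-likelihood test with the joint as a block, and by DESeq2 1.42.0. The trend over length and GC content was the median ratio of 20 classes of each, subtracted in 2 rounds. Python 3.11.15 did other steps. Ratios and tests were tested on simulated data.

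Members described with counts were those called whose higher library held 50 counts or more, those going opposite ways, the 3 of highest level in each control, Ski, Skil and the Id genes. Of 98 other pathway genes, the 3 largest rises and falls per pair could be named, at 100 counts or more, and not all of them are reported here. The members and lists were chosen with earlier results of these data known. The 13 cell type lists are given by their medians. Alternatives were 3 other scalings, 2 in place of 0.5 as the added count, other filters and limits, and removal of the trend. The label of RNA extraction names osteoblasts, and the libraries were taken as their tissue labels say.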

Additional observations from a re-analysis of the deposited data

Results flagged for a closer look

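Members whose ratio went opposite ways in the joints beyond both counting intervals, with at least 50 counts over each pair and a call in at least 1 pair, were singled out. Acvrl1 had log2 ratios of -1.17 in the hip and 0.41 in the knee, and Gdf10 of -1.86 and 0.93. Ltbp4 had -1.23 and 1.12, and Tgfbr1 had 2.16 and -0.11, although its knee ratio was 0.07 (interval -0.03 to 0.16) when scaled by total counts. The difference between the joints was not tested, because each condition of a joint has 1 library. The joints also differ in kind of control, age, Cre line and, as the study describes, bone in the knee samples, and these cannot be told apart. Members singled out in this way made up 7.55% of the members and 7.28% of all genes compared. Without the need for a call the shares were 34.0% and 20.5%, or 22.6% and 19.9% after the trend over length and GC content was subtracted, and 8 of the 18 members concerned went opposite ways under every scaling tried and after that step.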

How the results depend on the processing

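Over 9 alternatives, 2 of them chosen after seeing the data (TMM over genes with at least 10 counts, and leaving out members under 50 counts), 0 ratios of named members changed sign while called. Of 49 such ratios, 28 moved outside their counting interval with the length and GC trend removed, 16 with scaling by total counts, and 0 with DESeq2 size factors, TMM over genes with at least 10 counts, or 2 as the added count. The other 4 alternatives alter which genes are tested or called and cannot move a ratio. With the length and GC trend removed, 9 members were called in the hip pair, 4 of them higher, against 29.8% of all genes. At a limit of 1.5-fold, 29 hip members were called, 16 higher and 13 lower, against 51.6% of all genes, and 22 knee members, 16 higher and 6 lower, against 30.0%. Scaling by total counts gave a knee median of 0.51 and added calls of Gdf10, Acvr1b, Acvr2a and Ltbp2. Requiring 10 counts in each library lost the knee call of Fstl3, and leaving out members under 50 counts that of Gdf5. For the shift shared by both joints, the number of genes at an adjusted p under 0.05 was 0 by edgeR's quasi-likelihood test, 46 by DESeq2, 1 with DESeq2 size factors in edgeR and 2 with the trend removed in edgeR. Leaving out a library was not possible, because each condition of a joint has 1. Members with fewer than 50 counts, such as Acvr1c in the hip control or Fstl3 in the knee control, have intervals over 1 log2 unit wide, and the intervals leave out all differences between animals. The labels give no replicate numbers, so no block by number could be fitted, and the joint was the block of the test over both pairs.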
